A study of Mus musculus with 27 samples.

Results

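Macrophages sorted from mammary tumours of mice given cisplatin together with an antibody against CSF-1R, called the combination here, were compared with macrophages from mice given cisplatin with a control antibody. The combination gave 2 libraries and cisplatin 4, chosen by their titles alone out of 27 libraries in the series, and 9076 of 9996 genes in the table entered the test. All mice were K14cre;Cdh1F/F;Trp53F/F animals, in which Cre recombinase under the keratin 14 promoter deletes the floxed genes of E-cadherin and p53 in epithelial cells, so that mammary tumours arise on their own. Both groups received cisplatin and were taken 1 day after the last of 2 injections, so the antibody is the only labelled difference between them. Macrophages without cisplatin, from mice killed at a tumour size of 100 mm2, gave 4 libraries with the control antibody and 2 with anti-CSF-1R. They entered the same fit and are used below to set the antibody beside itself. Ages are not given in the sources used here, and neither is whether a library came from 1 mouse or from pooled mice. The p-values therefore cover only how far these libraries spread, which may be technical.

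CSF-1R is the receptor tyrosine kinase through which CSF-1 and IL-34 keep macrophages alive and let them divide, and antibodies against it remove many macrophages from tumours. Monocytes that enter a tissue from the blood carry Ly6C, and as they mature into macrophages they gain CX3CR1, complement C1q and receptors for dying cells. Interferons induce antiviral and antigen-presenting genes in such cells through transcription factors that include STAT2, IRF9 and IRF7. Cisplatin crosslinks DNA and activates p53 in cells that still have it. In bulk RNA from sorted cells, fewer cells of a type and less RNA per cell cannot be told apart.

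Levels are the authors' normalised read counts. In the deposited table many values under 1000 had lost their decimal point, and the place of the point was decoded from the value of 1 read in each library and a model of each gene. A value is left out, and n is smaller, where the place was uncertain. The decoded reads came to 1286473 to 7479193 per macrophage library, and the value of 1 read was 0.215 to 1.13 in the cisplatin libraries and 0.374 and 0.711 in the combination. The lowest value the table lists is 1. Across genes, which are not independent replicates, Pearson's r of the 6 libraries was 0.917 to 0.968 within a group and 0.885 to 0.916 between the groups. A gene passed when its limma adjusted p (Benjamini-Hochberg over all genes tested) was under 0.05. Log2 fold changes are combination minus cisplatin on log2(value + 1), with their standard error. Since the decoding model knew the groups, each gene was also tested after a group-blind decoding, whose model did not know them, and genes that passed each time are said to have passed in both decodings. Other genes that passed did so with the groups only, and on simulated data calls from the group-aware decoding were false more often than the threshold states.

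Of the 9076 genes, 399 passed (4.4%), 181 higher (1.99%) and 218 lower (2.4%) in the combination. After the group-blind decoding 112 of 9053 passed (1.24%), 54 higher (0.596%) and 58 lower (0.641%). Of 9007 genes tested in both decodings 111 passed in both (1.23%), 53 higher (0.588%) and 58 lower (0.644%). Taking the most probable place for every value gave 315 genes, of which 100 were higher and 215 lower. The count rested on both combination libraries. Without combination replicate 1 there were 58 genes, and without combination replicate 2 there was 1, the transcription factor gene Etv1 (log2 fold change -4.91, adjusted p = 0.00201). Without cisplatin replicate 1, 3 or 4 there were 164, 240 and 137 genes, and without cisplatin replicate 2 there were 576. Of 107 genes examined in detail that passed, 105 could be fitted without combination replicate 1 and 98 without replicate 2, all in the same direction, but 30 and 1 passed. Without cisplatin replicate 1, 3 or 4, 59, 74 and 54 of them passed. Every decoded combination value had more than 1 possible place for Alox5, Bax, Ephx1, Etv1, Etv5, Gadd45a, Gas6, Gins2, Gtse1, Il15, Kif1a, Mki67, Mmp8, Mnda, Mt2, Nr1h3, Nt5e, Retnlg, Rhou, Slc2a6, Tfec, Tnfsf10 and Zmat3, so the size of their change rests on the decoding. The size rests on it too for other genes, where every decoded cisplatin value had more than 1 possible place. Among genes that rose these were Atp6v0d2, Ccl5, Cebpd, Gbp6, Gbp10, Gpnmb, Ifi44, Il18, Isg20, Ly6c2, Mmp13, Pira1, Plac8, S100a8, S100a9, Slamf7, Trim30d and Usp18. Among genes that fell they were Bub1, Ccna2, Ccnb1, Cdk1, Foxm1, Hist1h2bm, Mcm2, Nusap1 and Rrm2. Cxcl10, which did not pass, was another. The genes below are grouped by what they are known to do. Counts of list members that rose or fell stand beside 1.99% higher and 2.4% lower among all genes tested.

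**Figure D1:**
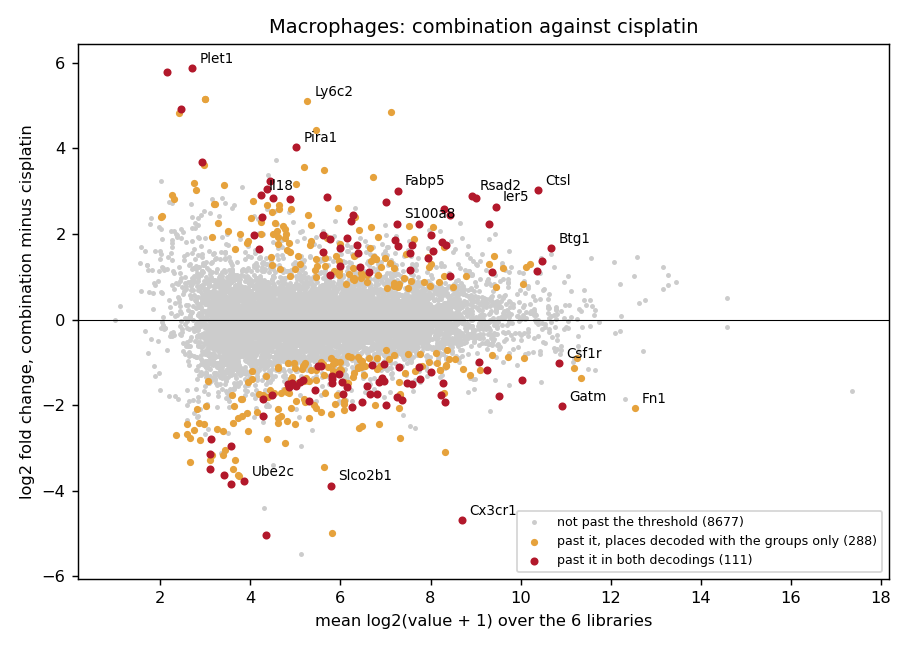
Each point is 1 of 9076 genes: the horizontal axis is the mean log2(value + 1) over the 6 libraries and the vertical axis the log2 fold change of combination minus cisplatin. Red points (111) passed in both decodings, orange points (288) with the group-aware decoding only, and grey points (8677) did not pass.

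Csf1r, the gene of the antibody's target, fell and came to lie within its range in sorted neutrophils. Its normalised count was 2452, 2002, 2450 and 2508 in the cisplatin libraries and 1126 and 1180 in the combination. The groups did not overlap (log2 fold change -1.02 ± 0.23 SE, adjusted p = 0.0281, and 0.0488 after the group-blind decoding). Without cisplatin replicates 1, 3 or 4, or either combination library, it did not pass (adjusted p up to 0.197). The 15 neutrophil libraries of the series, which carry some Csf1r RNA, lay at 520 to 1349. Adgre1, which encodes the macrophage surface protein F4/80, stood at 746, 683, 790 and 650 against 486 and 629 and did not pass (log2 fold change -0.37 ± 0.20 SE, adjusted p = 0.301). In sorted neutrophils Adgre1 was at 62.1 to 209.6, below all 6 of these libraries. Of the 25 tested macrophage markers, 4 fell (Csf1r, Cx3cr1, C1qb and C1qc) and 0 rose (all genes: 2.4% and 1.99%). Their median log2 fold change was -0.37 against -0.01 over all genes. The summed level of 27 macrophage markers overlapped between the groups, at 50949 to 83031 with cisplatin and 56132 and 59646 in the combination. Summed levels, here and below, take the most probable place for every value, uncertain ones included.

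Among the tested macrophage markers, the fall of the fractalkine receptor Cx3cr1 (chromosome 9, 119901616 to 120069879, minus strand, GRCm38 in GENCODE vM21, as for all positions below) was the largest. It stood at 862, 861, 737 and 724 with cisplatin and at 29.8 in the only decoded combination library, replicate 2 (log2 fold change -4.69 ± 0.40 SE, adjusted p = 0.000142). It passed in both decodings. The 11 leave-one-out fits that Cx3cr1 could enter all rest on that same combination value, so they cannot test the combination side. Cx3cr1 could not be fitted without combination replicate 2. P2ry12, a purine receptor that guides microglia and other resident macrophages to ATP and ADP, stood at 115, 103, 122 and 148 against 41.6 and 19.9 (log2 fold change -2.03 ± 0.31 SE, adjusted p = 0.0045). The sialic acid-binding inhibitory receptor Cd33 stood at 505, 428, 457 and 604 against 128 and 133 (log2 fold change -1.92 ± 0.32 SE, adjusted p = 0.00723). Nt5e, the CD73 enzyme that makes adenosine from AMP, stood at 157, 179, 136 and 133 against 36.3 and 53.3 (adjusted p = 0.0073). In each of these genes every decoded combination library was below every cisplatin library. For P2ry12, Cd33 and Nt5e this was a condition for being named among the largest falls.

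Several intracellular and transport genes also fell. Gatm, the mitochondrial enzyme of the first step of creatine synthesis (chromosome 2, 122594467 to 122611303, minus strand), fell from 3050, 2351, 4343 and 2925 to 658 and 879 (log2 fold change -2.02 ± 0.33 SE, adjusted p = 0.00614). Slco2b1, an organic anion transporter, stood at 165, 76.0, 149 and 173 against 13.1 and 4.97 (log2 fold change -3.88 ± 0.53 SE, adjusted p = 0.00268). Mef2c, a transcription factor of microglia and muscle, stood at 269 to 329 in the 4 cisplatin libraries against 121 and 104 (adjusted p = 0.00694). The TGF-beta receptor gene Tgfbr2 was at 638 to 723 against 391 and 298 (log2 fold change -0.99 ± 0.20 SE, adjusted p = 0.0169). Rtn1, an endoplasmic reticulum protein, stood at 43.6, 25 and 34.6 in 3 decoded cisplatin libraries against 1.87 and 1. Like Cd33, P2ry12 and Nt5e, these 5 passed in both decodings, which Gatm and Slco2b1 had to do to be among the largest falls. Mef2c, Tgfbr2 and Rtn1 were chosen after their values were seen.

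The complement C1q chains, which tag dying cells and debris for uptake, were lower in the combination at the edge of the threshold. C1qb stood at 2704, 2747, 3866 and 2990 with cisplatin and at 1659 and 1156 in the combination (log2 fold change -1.14 ± 0.28 SE, adjusted p = 0.0403). C1qc stood at 2794, 2806, 4058 and 3002 against 1216 in 1 decoded library (adjusted p = 0.0403), and C1qa at 928, 1247, 1577 and 1218 against 257 and 692 did not pass (adjusted p = 0.0568). Neither C1qb nor C1qc passed after the group-blind decoding (adjusted p = 0.0654 and 0.0668). Of 17 tested complement genes 0 rose and 3 fell (all genes: 1.99% and 2.4%), with a median of -0.98. Leaving out combination replicate 1 left 1 complement gene, and leaving out replicate 2 left 0.

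Of 20 genes for the uptake of dying cells, 4 fell and 1 rose (all genes: 2.4% and 1.99%), C1qb and C1qc being 2 of those that fell. The engulfment adaptor Elmo1 (chromosome 13, 20090596 to 20608353, plus strand) fell from 297, 285, 223 and 289 to 84.2 and 109 (log2 fold change -1.50 ± 0.22 SE, adjusted p = 0.00309). Gas6, a bridge between phosphatidylserine on dying cells and the TAM receptors, stood at 178, 132, 174 and 130 against 28.5 and 22.7 (adjusted p = 0.00193), but it could not be tested after the group-blind decoding. Cd300a, an inhibitory receptor for phosphatidylserine, rose from 130, 123 and 102 to 405 and 390 (log2 fold change 1.75 ± 0.25 SE, adjusted p = 0.004). The TAM receptor gene Mertk stood at 201 to 300 against 472 and 386 and did not pass (adjusted p = 0.161). The mannose receptor gene Mrc1, at 1428 to 3005 against 1602 and 1040, overlapped between the groups (adjusted p = 0.379).

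**Figure D2:**
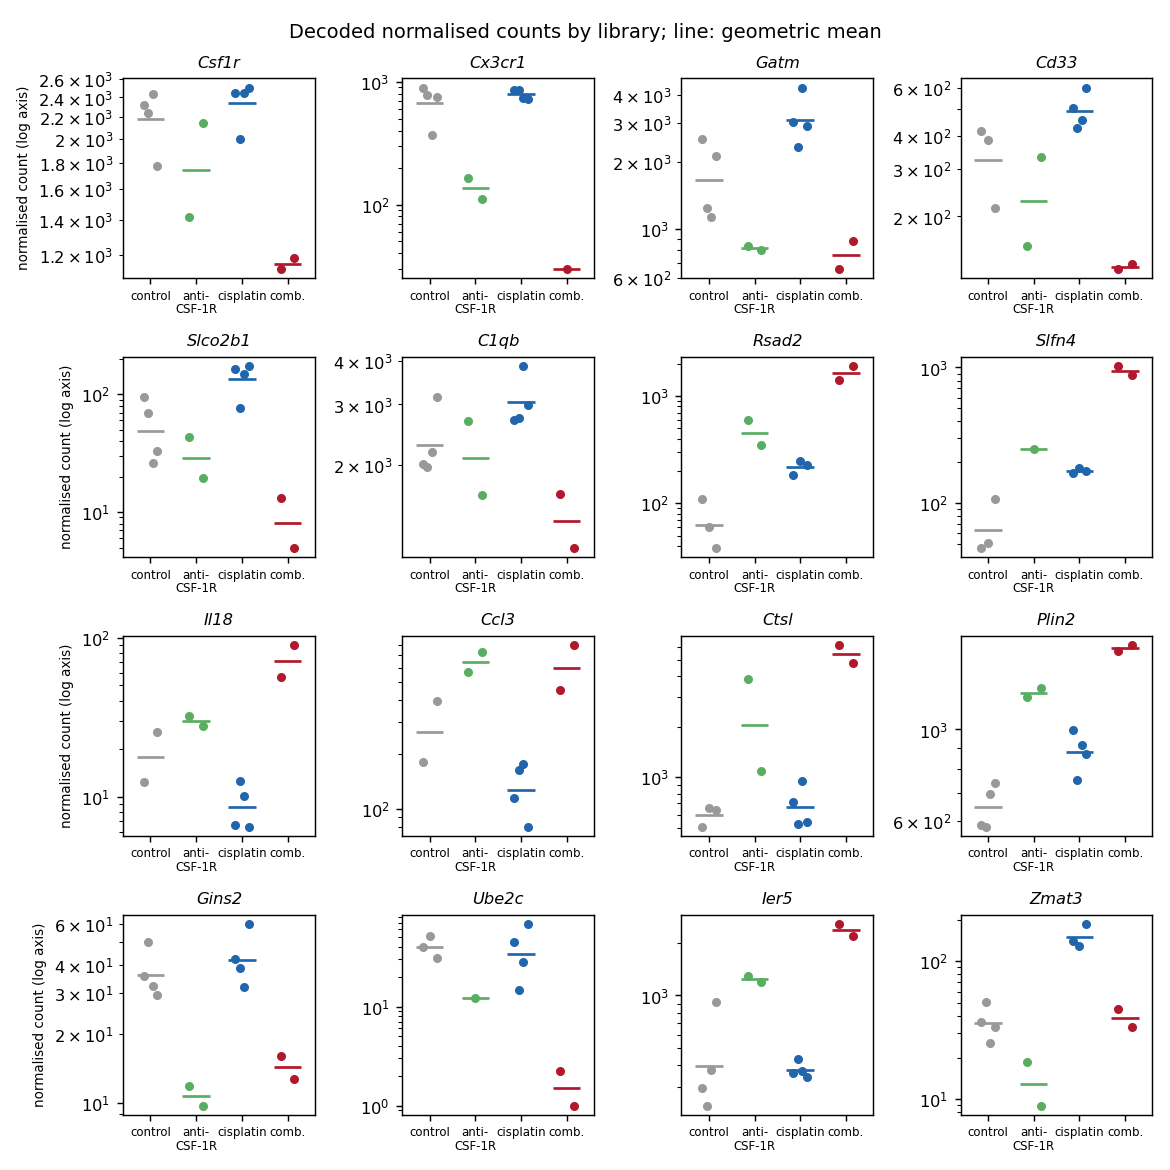
Each panel shows 1 gene, with a point for each library with a decoded value in the 4 macrophage groups; the vertical axis is the normalised count on a log scale and the line the geometric mean. In the panels from Csf1r to C1qb and in Gins2, Ube2c and Zmat3 the combination lies below all cisplatin libraries, and in Rsad2, Slfn4, Il18, Ccl3, Ctsl, Plin2 and Ier5 above them.

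Monocyte genes moved in both directions. Of 16 tested monocyte markers 5 rose and 1 fell (all genes: 1.99% and 2.4%), with a median of 1.05. After the group-blind decoding 1 rose (median 0.51), and over values with 1 possible place alone the median was -0.18. Ly6c2, which encodes the monocyte antigen Ly6C (chromosome 15, 75108158 to 75111970, minus strand), stood at 5.17, 11.8 and 9.18 in 3 cisplatin libraries and at 160 and 637 in the combination (log2 fold change 5.10 ± 0.57 SE, adjusted p = 0.00138). It could not be tested after the group-blind decoding, and near-identical Ly6 genes can share its reads. Ms4a4c, a membrane protein of monocytes that is also interferon-induced, stood at 110, 263, 192 and 125 against 533 and 777 (log2 fold change 1.98 ± 0.38 SE, adjusted p = 0.0181) and passed in both decodings. The aspartic protease gene Napsa, at 8.64 to 29.5 against 56.9 and 74.6, passed with the groups only (adjusted p = 0.0137). Plac8 also rose with the groups only.

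Fibronectin and the monocyte chemokine receptor did not follow these genes. Fn1, a matrix protein that monocytes and peritoneal macrophages make in quantity, fell from 9806, 5507, 12602 and 12181 to 2867 and 1791 (log2 fold change -2.07 ± 0.51 SE, adjusted p = 0.036, and 0.0628 after the group-blind decoding). With Fn1 among them, the summed level of the 19 monocyte markers was lower in the combination (5418 and 6746) than with cisplatin (7729 to 15852). Ccr2, the receptor that draws monocytes out of the bone marrow, stood at 866, 426, 675 and 922 with cisplatin and at 465 in 1 combination library and did not pass (adjusted p = 0.619).

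Markers of several other white cells, though not all, were higher in the combination libraries. Of 13 tested neutrophil markers 4 rose in both decodings and 0 fell, with a median of 1.45. Among all genes tested in both decodings 0.588% were higher and 0.644% lower in both. The calgranulin S100a8 stood at 71.5 and 68.2 in 2 decoded cisplatin libraries and at 349 and 317 in the combination (log2 fold change 2.24 ± 0.28 SE, adjusted p = 0.00491), against 3778 to 21187 in the 15 neutrophil libraries. S100a9 stood at 94.3 in 1 cisplatin library against 533 and 602 (adjusted p = 0.00657). The neutrophil collagenase Mmp8 was at 1 to 4.54 against 39.7 and 41.2 (adjusted p = 0.023), and Retnlg was the fourth. Csf3r, the receptor for the neutrophil growth factor G-CSF, stood at 93.1, 252, 165 and 123 against 292 and 399 and did not pass (adjusted p = 0.116). The summed level of the 18 analysed neutrophil markers was 703 to 1178 with cisplatin, 2446 and 2780 in the combination, and 36050 to 137111 in sorted neutrophils. In macrophages without cisplatin that sum was 630 to 2638 with the control antibody and 1930 and 3190 with anti-CSF-1R.

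The summed level of 6 analysed eosinophil markers was 9.46 to 11.1 with cisplatin and 192 and 231 in the combination. Ear1 and Ear2 were too uncertain to keep in combination replicate 1, so its sum rests in part on uncertain places. The eosinophil-associated ribonuclease gene Ear2 was listed at 1 in all 4 cisplatin libraries and stood at 109 in combination replicate 2, the only one decoded (adjusted p = 0.00193 and, without the groups, 0.0318). Ear genes are near-identical copies whose reads may be shared, and macrophages can express them too. The sums for B cell markers were 29.1 to 64.1 against 99.5 and 128, for endothelial markers 68.2 to 98.1 against 136 and 190, and for conventional dendritic cell markers 163 to 441 against 564 and 576. The 1 analysed plasmacytoid dendritic cell marker was lower, at 291 to 411 against 158 and 216. The sums of 3 T and NK cell markers overlapped (37.2 to 153 against 129 and 156), as did those of 7 epithelial markers (11.7 to 90.7 against 17.6 and 22.9). Mast cell markers came to 20.6 to 63.7 against 86.1 and 129, and Tpsb2, Mcpt4, Fcer1a, Ms4a2 and Gata2 were at 1 in all 6 libraries. The part of these markers in the results below was not tested.

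**Figure D3:**
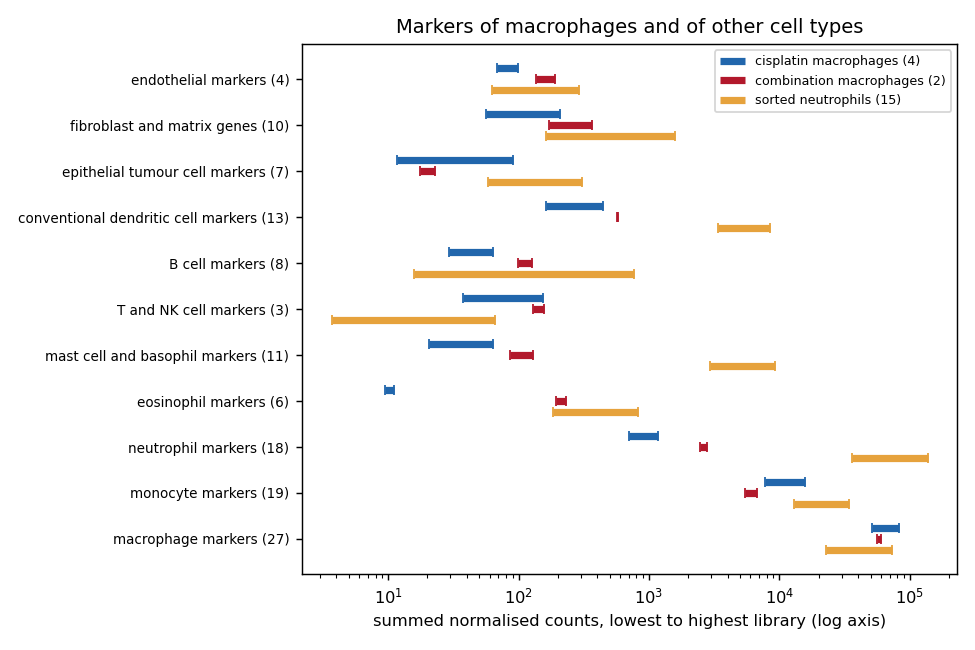
Bars run from the lowest to the highest library on a log axis of summed normalised counts, for cisplatin macrophages (4 libraries), combination macrophages (2) and sorted neutrophils (15), with the number of analysed markers in brackets. Each sum takes the most probable place for every value, uncertain ones included. The neutrophil markers of the combination (2446 and 2780) lie above cisplatin (703 to 1178) and below sorted neutrophils (36050 to 137111).

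Interferon-induced genes were higher in the combination. Of 57 tested type I interferon-stimulated genes 56 had a positive log2 fold change, with a median of 1.30 against -0.01 over all genes. Of the 57, 12 rose and 0 fell (all genes: 1.99% and 2.4%). Rsad2, Slfn4, Trim30d, Cmpk2 and Ms4a4c passed in both decodings. Leaving out combination replicate 1 left 2 that rose and leaving out replicate 2 left 0. Over the alternatives run the median stayed between 0.91 and 1.52. The mean level of the list, as the log2 deviation from the mean of the 12 macrophage libraries, was -0.48, 0.37, -0.06 and -0.47 in the cisplatin libraries and 1.09 and 1.19 in the combination. Cisplatin replicate 2 was the highest of its group and was still below both combination libraries.

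Within the type I list the largest change was that of Rsad2, which encodes the antiviral enzyme viperin (chromosome 12, 26442746 to 26456452, minus strand). It rose from 182, 249 and 226 with cisplatin to 1641 ± 344 in the combination (mean ± SD, n = 2). The difference was 2.90 ± 0.39 SE on the log2 scale (adjusted p = 0.00309). Slfn4, a Schlafen family gene of myeloid cells, rose from 167, 183 and 172 to 1019 and 880 (log2 fold change 2.44 ± 0.32 SE, adjusted p = 0.00351). Cmpk2, the nucleotide kinase gene beside Rsad2, stood at 31.8, 44.3, 34.9 and 28.6 against 145 and 117 (adjusted p = 0.0439), and Trim30d at 32.5, 72.8 and 24.8 against 189 and 202 (adjusted p = 0.0137). The RNA-binding antiviral genes Ifit2 and Ifit3 passed with the groups only: Ifit2 stood at 79.8, 201, 109 and 82.6 against 514 and 485 (adjusted p = 0.0401). Oas3, which makes the oligoadenylate signal that activates RNase L, was at 86.4, 257 and 139 against 592 and 723 (adjusted p = 0.034). Isg20, Usp18, Ifi44 and Mnda were the other members that rose, also with the groups only.

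Of 25 interferon signalling and nucleic acid sensor genes 1 rose, a share near the 1.99% of all genes called higher. This was Irf7, at 244, 149 and 121 against 347 and 599 (log2 fold change 1.47 ± 0.34 SE, adjusted p = 0.0423, and 0.18 after the group-blind decoding). The median of this list was 0.16. The gene for interferon-beta, Ifnb1, was not analysed here.

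The promoters of 4 genes that rose are shown because each holds the interferon-stimulated response element, a site bound by STAT2 and IRF9, searched on both strands as GAAA, any 2 bases and GAAA again. Each is the 300 bases from 250 before to 50 after a RefSeq start (GRCm38.p6), written along the gene's strand, with the match in capitals. Rsad2 is at chr12:26456403-26456702 (minus strand), Trim30d at chr7:104507800-104508099 (minus), Oas3 at chr5:120777610-120777909 (minus) and Gbp2 at chr3:142620413-142620712 (plus).
Rsad2: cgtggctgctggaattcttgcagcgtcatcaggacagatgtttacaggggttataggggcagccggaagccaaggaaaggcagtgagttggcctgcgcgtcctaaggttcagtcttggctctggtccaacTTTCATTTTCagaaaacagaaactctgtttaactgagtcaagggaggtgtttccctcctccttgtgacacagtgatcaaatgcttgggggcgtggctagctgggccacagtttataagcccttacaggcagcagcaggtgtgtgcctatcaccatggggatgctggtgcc
Trim30d: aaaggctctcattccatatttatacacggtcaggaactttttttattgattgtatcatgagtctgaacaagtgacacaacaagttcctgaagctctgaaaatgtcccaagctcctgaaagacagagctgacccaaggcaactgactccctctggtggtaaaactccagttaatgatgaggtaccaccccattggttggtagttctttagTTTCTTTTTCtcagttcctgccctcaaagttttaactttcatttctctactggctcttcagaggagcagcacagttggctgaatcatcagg
Oas3: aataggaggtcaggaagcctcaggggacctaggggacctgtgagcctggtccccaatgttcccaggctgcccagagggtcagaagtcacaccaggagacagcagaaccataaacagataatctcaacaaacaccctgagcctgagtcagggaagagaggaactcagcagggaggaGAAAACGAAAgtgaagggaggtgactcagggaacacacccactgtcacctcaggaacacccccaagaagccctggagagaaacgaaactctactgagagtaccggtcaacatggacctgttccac
Gbp2: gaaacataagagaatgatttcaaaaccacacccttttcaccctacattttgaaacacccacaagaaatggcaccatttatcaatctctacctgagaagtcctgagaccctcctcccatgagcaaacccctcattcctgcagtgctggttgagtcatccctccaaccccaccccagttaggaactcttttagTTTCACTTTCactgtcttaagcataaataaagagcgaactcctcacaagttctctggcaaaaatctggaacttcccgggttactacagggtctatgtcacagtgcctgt

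The match began 120 bases before the start in Rsad2, 41 in Trim30d, 75 in Oas3 and 59 in Gbp2. Of the 45 tested type I interferon-stimulated genes with a promoter in the table, 19 (42.2%) held the element, and 4 of the 10 that rose did (40.0%). Among all tested genes 288 of 6988 (4.12%) held it, and among all promoter windows 1131 of 32851 (3.44%). Of the 130 genes with a promoter that were higher in the combination 12 (9.23%) held it, and of the 168 lower ones 2 (1.19%). A match is a description of the letters and does not show binding.

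Genes that respond to interferon-gamma and genes that attract T cells were higher as well. Of 22 tested interferon-gamma-responsive genes 4 rose and 0 fell (all genes: 1.99% and 2.4%), with a median of 1.65. Those that rose were Cd274 and the guanylate-binding protein genes Gbp2, Gbp6 and Gbp10. Cd274, the checkpoint ligand PD-L1 (chromosome 19, 29367455 to 29388095, plus strand), rose from 129, 270 and 228 to 587 and 767 (log2 fold change 1.75 ± 0.36 SE, adjusted p = 0.026) and was the one that passed in both decodings (adjusted p = 0.0498 without the groups). Gbp2 stood at 70.9, 104, 27.8 and 67.0 against 174 and 434 (adjusted p = 0.0498). Reads of Gbp6 and Gbp10, which are near-identical copies, may be shared. Leaving out either combination library left 0 of the 4.

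Of 15 tested genes for T cell attraction and costimulation 7 rose and 0 fell (all genes: 1.99% and 2.4%), with a median of 1.98. Il18, a cytokine that makes T and NK cells release interferon-gamma (chromosome 9, 50554827 to 50581840, plus strand), rose from 6.65, 12.5, 10.1 and 6.48 to 56.9 and 89.5 (log2 fold change 2.91 ± 0.38 SE, adjusted p = 0.00309). Il15, a survival factor of NK and memory T cells, rose from 10.3, 12.5, 8.61 and 8.10 to 45.3 and 37.7 (adjusted p = 0.0191). The chemokine gene Ccl3 rose from 115, 163, 177 and 79.9 to 452 and 797 (log2 fold change 2.23 ± 0.38 SE, adjusted p = 0.00956). These 3 passed in both decodings.

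The CXCR3 ligands were less certain. Cxcl9 stood at 107, 77.2, 9.47 and 63.2 with cisplatin and 249 and 978 in the combination (log2 fold change 3.34 ± 0.80 SE, adjusted p = 0.0359, and 0.0638 without the groups). Cxcl11 rose with the groups only (adjusted p = 0.0423), and Cxcl10, at 66.3 to 82.8 against 126 and 183, did not pass (adjusted p = 0.0951). Ccl5, another chemokine gene, stood at 14, 15.9 and 25 against 115 and 386 and could not be tested without the groups (adjusted p = 0.00676). Tnfsf10, the death ligand TRAIL, was the other member that rose. Without combination replicate 1 there were 3 genes of this list that rose, and without replicate 2 there were 0.

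Antigen presentation genes did not pass one by one. Of 22 MHC class I presentation genes 19 had a positive log2 fold change (median 0.73) and 0 passed in limma, with 9 at an unadjusted p under 0.05. Of 12 MHC class II genes 0 passed in limma and 1 was under an unadjusted p of 0.05 (median 0.33, but -0.20 without combination replicate 2). Among 27 NF-kB targets and inflammatory cytokines 26 had a positive log2 fold change (median 0.74), and 0 passed in limma, with 5 at an unadjusted p under 0.05.

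Some genes of activated myeloid cells outside these lists stood out. Slamf7, a self-ligand receptor of macrophages and lymphocytes, rose from 95.3, 81.7, 86.7 and 29.7 to 339 and 620 (log2 fold change 2.76 ± 0.50 SE, adjusted p = 0.0112). Pira1, a paired immunoglobulin-like receptor of a family of near-identical copies, stood at 5.17, 9.04 and 18.4 against 144 and 207 (log2 fold change 4.03 ± 0.46 SE, adjusted p = 0.00351). Ly6a, the interferon-induced antigen Sca-1, stood at 187, 463 and 150 against 1163 and 2442 (adjusted p = 0.0132). All 3 are among the largest rises, which were named only if they passed in both decodings and the groups did not overlap.

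Lysosomal and lipid genes rose in part. Of 33 lysosomal proteases and hydrolases 4 rose and 0 fell (all genes: 1.99% and 2.4%), with a median of 0.31. Ctsl, the lysosomal cysteine protease cathepsin L (chromosome 13, 64359337 to 64370890, minus strand), rose from 709, 524, 952 and 542 to 6112 and 4787 (log2 fold change 3.03 ± 0.40 SE, adjusted p = 0.00275) and passed in both decodings. The proton pump subunit genes Atp6v0d2, at 27.8 to 76.8 against 293 and 198, and Atp6v1h, at 86.9 to 162 against 264 and 244, passed with the groups only (adjusted p = 0.00956 and 0.0281). Another subunit, Atp6v1c1, stood at 230 to 315 against 507 and 593 and passed in both decodings (adjusted p = 0.0177). Gpnmb, a glycoprotein of lysosome-laden macrophages, was decoded in 1 library of each group, at 25 with cisplatin and 746 in the combination. The most abundant of the named proteases, Ctsd, stood at 3586 to 4484 against 7778 and 6146 and did not pass (adjusted p = 0.108).

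Of 28 lipid genes 4 rose and 0 fell (all genes: 1.99% and 2.4%), with a median of 0.27. Fabp5, a fatty acid-binding protein, stood at 100, 84.0 and 89.1 in 3 cisplatin libraries and 740 in combination replicate 2 (log2 fold change 3.01 ± 0.35 SE, adjusted p = 0.00268) and passed in both decodings. Plin2, which coats lipid droplets, rose from 996, 756, 915 and 870 to 1547 and 1602 (log2 fold change 0.84 ± 0.20 SE, adjusted p = 0.0317, and 0.0533 without the groups). The galectin gene Lgals3, at 504 to 626 against 1235 and 1340, and Nr1h3, the oxysterol receptor LXR-alpha, at 18.3 to 32.5 against 59.5 and 56.1, rose with the groups only (adjusted p = 0.0289 and 0.0357). Leaving out combination replicate 1 left 1 lipid gene and 2 lysosomal genes, and leaving out replicate 2 left 0 of both. Of 16 cholesterol synthesis genes 0 passed in limma, with 3 at an unadjusted p under 0.05.

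Cell cycle genes were lower in the combination. Of 21 tested mitosis genes all 21 had a negative log2 fold change (median -1.71), and 7 fell and 0 rose (all genes: 2.4% and 1.99%). Of 24 DNA replication genes 22 were negative (median -1.28), and 6 fell and 0 rose, beside the same shares. Over values with 1 possible place alone the replication median was 0.58, from 1 gene. Ube2c and Gins2 were the members that passed in both decodings. The mean level of the mitosis list was 0.62, -0.03, 0.05 and 1.41 in the cisplatin libraries and -1.37 and -1.60 in the combination, so that the groups did not overlap. Without combination replicate 1 there were 2 mitosis genes and 0 replication genes that fell, and without replicate 2 there were 0 of both.

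Ube2c, a ubiquitin-conjugating enzyme that helps destroy cyclin B (chromosome 2, 164769898 to 164778822, plus strand), stood at 45.1, 14.8, 28.2 and 68.0 with cisplatin and at 2.25 and 1 in the combination (log2 fold change -3.77 ± 0.51 SE, adjusted p = 0.00309). Gins2, a subunit of the replicative helicase, stood at 42.1, 38.6, 31.9 and 59.9 against 16.1 and 12.8 (log2 fold change -1.49 ± 0.31 SE, adjusted p = 0.0176). Mcm2, another helicase subunit, fell from 48.0, 36.3, 28.6 and 45.4 to 7.11 and 9.95 (adjusted p = 0.00614, and 0.0533 without the groups). Ribonucleotide reductase Rrm2, cyclin genes Ccna2 and Ccnb1, and the kinase genes Bub1 and Cdk1 fell with the groups only. The histone gene Hist1h2bm was at 9.08 to 26.6 against 1 and 1 and passed in both decodings (adjusted p = 0.00309). Mki67, the Ki-67 antigen, stood at 503 and 389 in 2 decoded cisplatin libraries against 78.2 and 77.5 and did not pass (adjusted p = 0.0506).

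The promoters of Ube2c and Cdk1 are shown because they hold the cell cycle homology region, a site through which the DREAM and MuvB complexes control mitotic genes, searched as TTTGAA on both strands and in capitals below. The windows are chr2:164769679-164769978 (plus strand) for Ube2c and chr10:69352863-69353162 (minus) for Cdk1, both of GRCm38.p6.
Ube2c: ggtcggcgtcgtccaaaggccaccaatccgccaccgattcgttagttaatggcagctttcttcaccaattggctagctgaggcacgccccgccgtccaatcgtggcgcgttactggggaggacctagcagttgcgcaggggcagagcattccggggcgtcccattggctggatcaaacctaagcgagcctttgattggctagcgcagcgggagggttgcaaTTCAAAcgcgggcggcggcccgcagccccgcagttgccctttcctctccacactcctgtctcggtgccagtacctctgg
Cdk1: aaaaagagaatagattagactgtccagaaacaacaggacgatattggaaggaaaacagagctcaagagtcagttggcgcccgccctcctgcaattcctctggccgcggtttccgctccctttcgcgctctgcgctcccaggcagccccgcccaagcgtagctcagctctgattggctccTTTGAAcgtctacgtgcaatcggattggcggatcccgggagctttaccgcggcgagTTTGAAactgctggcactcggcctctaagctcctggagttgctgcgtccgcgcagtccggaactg

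Of 18 tested mitosis genes with a promoter 13 (72.2%) held these letters, against 980 of 6988 tested genes (14%) and 5878 of 32851 windows (17.9%). Of the 5 mitosis genes that fell and had a promoter, 2 (40.0%) held them.

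Targets of p53 did not move one way. Of 21 tested p53 targets 1 rose and 3 fell (all genes: 1.99% and 2.4%), with a median of -0.003. Zmat3, an RNA-binding zinc finger gene induced by p53, fell from 140, 129 and 186 to 45.3 and 33.4 (log2 fold change -1.92 ± 0.35 SE, adjusted p = 0.0112) and was the one that passed in both decodings. Bax, the pore-forming death gene, stood at 120, 110, 102 and 86.4 against 51.7 and 36.2 (adjusted p = 0.0313). Gtse1, which is also a mitotic gene, was the third, and Gadd45a, at 8.12 to 29.5 against 74.5 and 52.6, rose (adjusted p = 0.0363). Cyclin G1, Ccng1, stood at 733, 646, 678 and 693 against 453 and 517 (adjusted p = 0.125), the cell cycle inhibitor gene Cdkn1a at 1820 to 2383 against 950 and 1598 (adjusted p = 0.245), and the p53 antagonist gene Mdm2 at 799 to 967 against 1346 and 2021 (adjusted p = 0.101). None of those 3 passed. Leaving out either combination library left 0 p53 targets past the threshold.

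Immediate early genes and some transcription factors changed. Of 26 immediate early and heat shock genes 4 rose and 0 fell (all genes: 1.99% and 2.4%), with a median of 0.89. Ier5, an immediate early regulator of the heat shock response (chromosome 1, 155096361 to 155099636, minus strand), rose from 364, 438, 372 and 344 to 2547 and 2184 (log2 fold change 2.64 ± 0.39 SE, adjusted p = 0.00309). The AP-1 subunit Jun, at 177, 171 and 159 against 452 and 579, and Klf6, at 861, 1230, 1200 and 846 against 1972 and 2513, also passed in both decodings (adjusted p = 0.023 and 0.0246). Egr2 rose with the groups only (adjusted p = 0.0403). Outside the list, the antiproliferative gene Btg1 rose from 1312, 1086, 1221 and 895 to 2995 and 4177 (adjusted p = 0.00759) and Hif1a, the oxygen-regulated factor, from 594, 436, 584 and 443 to 989 and 1222 (adjusted p = 0.0154).

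Among 33 myeloid transcription factors 5 rose and 3 fell (all genes: 1.99% and 2.4%). The circadian repressor Nr1d1 fell from 106, 57.9, 109 and 143 to 27.7 and 29.8 (log2 fold change -1.75 ± 0.30 SE, adjusted p = 0.00792) in both decodings. Etv1, an ETS factor downstream of receptor tyrosine kinases, stood at 177, 182, 152 and 196 with cisplatin and at 4.87 and 4.26 in the combination (log2 fold change -4.99 ± 0.38 SE, adjusted p = 2.3e-05). Both combination values of Etv1 have more than 1 possible place, it could not be tested after the group-blind decoding, and its size rests on that choice. Its relative Etv5 stood at 105, 109, 167 and 106 against 64.8 and 48.3 (adjusted p = 0.0343) with the groups only. Cebpd, Nr1h3, Tfec, Egr2 and Klf6 were the 5 that rose.

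Matrix genes were mixed. Thbs1, the matricellular protein thrombospondin-1 (chromosome 2, 118111876 to 118127133, plus strand), rose from 521, 255, 490 and 307 to 1585 and 2005 (log2 fold change 2.24 ± 0.49 SE, adjusted p = 0.023) in both decodings. The collagenase Mmp13 stood at 28.1, 26.1 and 36.2 against 138 and 95.2 (adjusted p = 0.0195) and could not be tested without the groups. With Mmp8 and Fn1, 3 of 29 matrix and growth factor genes rose and 1 fell (all genes: 1.99% and 2.4%). Arginase, Arg1, a marker of alternative activation, varied from 328 to 3555 in the cisplatin libraries and stood at 982 in 1 combination library (adjusted p = 0.994).

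The remaining lists held few genes that passed, and are set beside the 2.4% of all genes that were lower. Of 21 solute carriers 3 fell, with Slco2b1 the zinc carrier gene Slc39a8 (adjusted p = 0.0141) and the sugar carrier gene Slc2a6, at 65.7, 63.1 and 67.5 against 12 and 23.4 (adjusted p = 0.0148). Slc2a6 passed in both decodings, although both its combination values have more than 1 possible place. Of 13 eicosanoid synthesis genes 2 fell, Ephx1 and the leukotriene-forming lipoxygenase gene Alox5. After the group-blind decoding Ephx1 did not pass (adjusted p = 0.122) and Alox5 could not be tested. Alox5 stood at 91.6, 142 and 161 against 9.36 and 12.8, and both combination values again have more than 1 possible place (adjusted p = 0.00438). Of 28 cytosolic ribosomal protein genes 1 fell, a share near the 2.4% of all genes, and the list's median was -0.31. This was Rpl10a, at 902, 599, 877 and 844 against 314 and 399 (log2 fold change -1.17 ± 0.23 SE, adjusted p = 0.0135). The metallothionein gene Mt2 was the 1 of 20 iron and oxidative stress genes that fell (adjusted p = 0.0403), also beside 2.4% of all genes. Of 26 oxidative phosphorylation genes, 21 Fc receptor and TREM genes, 18 Toll-like receptors and 14 myeloid-attracting chemokines 0 passed in limma, with 3, 6, 4 and 2 at an unadjusted p under 0.05 and medians of 0.16, 0.21, -0.11 and 0.41.

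**Figure D4:**
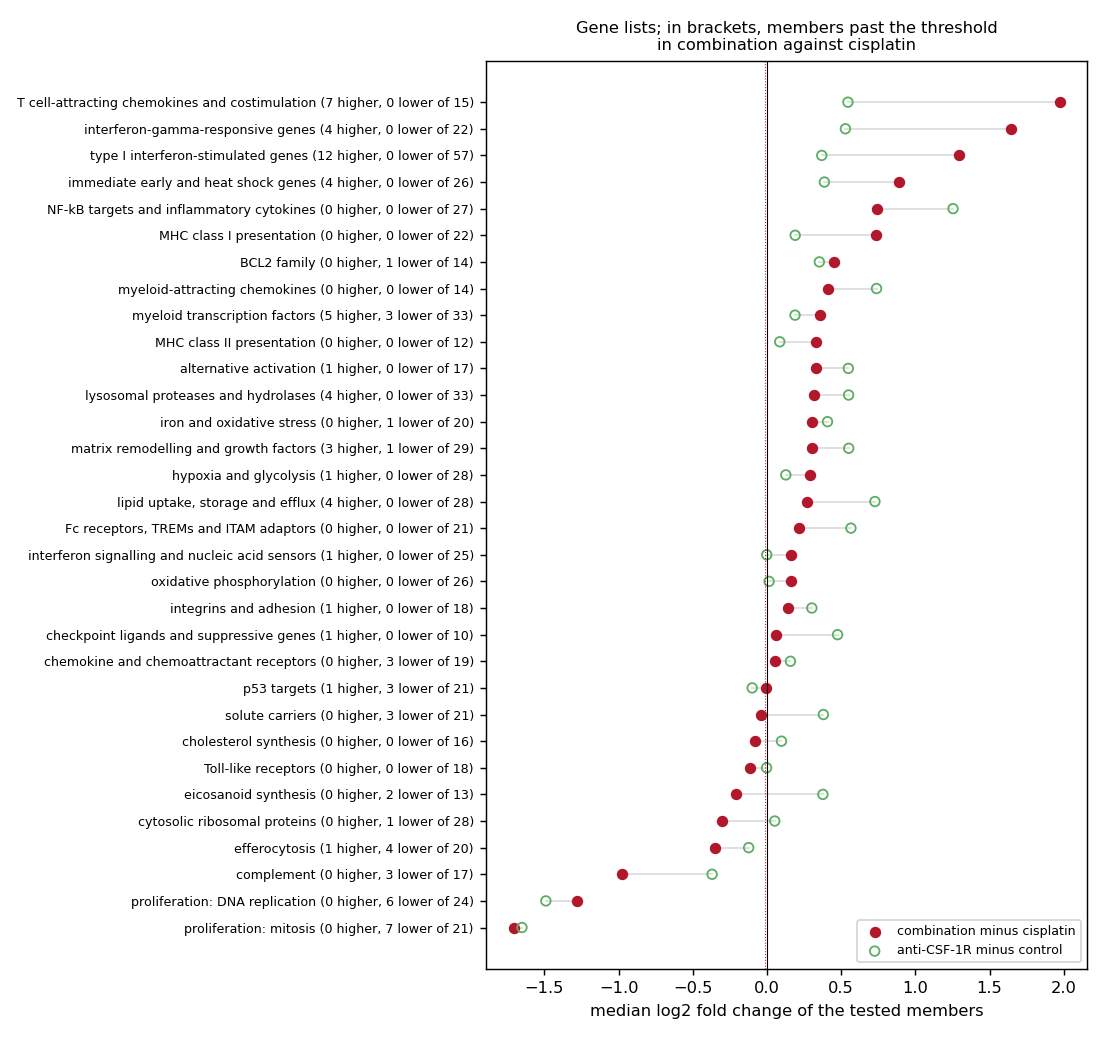
Filled points give the median log2 fold change of each list of a process with at least 10 tested genes in combination minus cisplatin, open points the same in anti-CSF-1R minus control; the dotted line is the median of all genes, and brackets give the members that passed with cisplatin. T cell-attracting, interferon-gamma and type I interferon lists lie farthest right (1.98, 1.65 and 1.30) and mitosis genes farthest left (-1.71).

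The antibody was set beside itself in tumours without cisplatin, which share no library with the comparison above. Anti-CSF-1R against control called 391 of 9081 genes (4.31%), 174 higher and 217 lower (1.92% and 2.39%), and 93 (1.03%) after the group-blind decoding. Of 8963 genes tested in both, 65.6% had the same direction, and of 391 called with cisplatin 336 (85.9%) did. In all 97 genes passed in both comparisons, 24.8% of those called with cisplatin and 26.1% of those called without it. Of the 97, 44 were higher in both and 52 lower in both, and 1, Mmp13, rose with cisplatin and fell without it. As all 12 libraries entered 1 fit and 1 decoding model, the comparisons share their estimate of the spread.

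Some of the genes named above passed in both comparisons, while Etv1 and Slco2b1 did not pass without cisplatin (adjusted p = 0.896 and 0.449). Pira1 did not pass there either, but it was decoded in only 1 control (67.5) and 1 anti-CSF-1R library (40.0). For Pira1 and Slco2b1 the change was not shown to differ with and without cisplatin, by the test of the difference given below. Cx3cr1 fell from 899, 781, 371 and 758 in controls to 166 and 112 with anti-CSF-1R (log2 fold change -2.28, adjusted p = 0.00263). Rsad2 stood at 111, 59.9 and 38.5 against 598 and 346 (adjusted p = 0.00366), and Ly6c2 at 1 to 5.04 against 126 and 117 (adjusted p = 0.000386). Ctsl, Fabp5, Thbs1, Ier5, Btg1, Hif1a, Elmo1 and Zmat3 passed in the same direction too. The type I interferon list had a median of 0.37 without cisplatin and 1.30 with it, and the T cell-attracting list 0.55 and 1.98. Mitosis genes had -1.65 and -1.71.

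**Figure D5:**
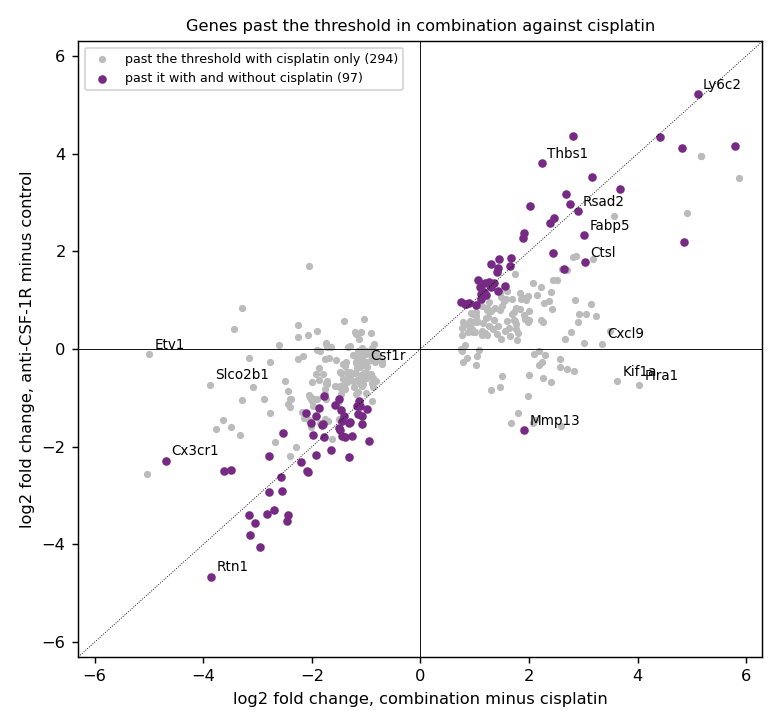
Each point is 1 of 391 genes that passed in combination against cisplatin and were tested in both; the horizontal axis is that log2 fold change and the vertical axis the log2 fold change of anti-CSF-1R minus control, with the line of equal change dotted. The 97 purple points passed in both and, except for Mmp13, lie in the upper right or lower left.

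The test of the difference between the 2 antibody effects (the interaction) called 3 of 8963 genes (0.0335%), 1 higher (0.0112%) and 2 lower (0.0223%), with 835 (9.32%) at an unadjusted p under 0.05. Etv1 changed by -4.99 with cisplatin and -0.11 without (difference -4.88 ± 0.53 SE, adjusted p = 0.0024). Kif1a, a motor protein gene, changed by 3.62 and -0.65 (difference 4.28 ± 0.54 SE, adjusted p = 0.0361), and Ep400, a chromatin remodelling gene, by 0.21 and 2.96 (difference -2.74 ± 0.36 SE, adjusted p = 0.0147). Kif1a was decoded in 2 cisplatin libraries, at 1.48 and 1, and Ep400 stood at 20.6 to 26.8 in the controls and at 142 to 235 in the other groups. Every control value of Ep400 had more than 1 possible place, so the size of its difference rests on the decoding. The group-blind decoding called 0 genes (limma), with 610 (6.81%) at an unadjusted p under 0.05, and the cause was not tested. The interferon and T cell-attracting genes named above were not shown to differ between the 2 settings: the interaction of Cxcl9 was 3.23 with an adjusted p of 0.436, and that of Rsad2 0.08 with an adjusted p of 0.98.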

How the data were processed

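RNA from sorted tumour macrophages (10 ng of total RNA per library, amplified and sequenced, per the labels' protocols) was processed by the authors with CASAVA 1.8, TopHat2 2.0.11, Partek 6.6, R 3.3.1 and DESeq2 on mm10, per the submitters' processing notes. Their roles are not stated. The deposited table holds a signal per gene and library, read as counts divided by a size factor, with 1 as the lowest value; this reading comes from the values. In 109955 of 119952 macrophage values the printed form allows a lost decimal point (values under 1000 with 3 decimals). The place was decoded from the value of 1 read in each library and a negative binomial model of each gene that used the groups. In 67.6% of values several places were possible, and 8614 values (7.18%) with a probability under 0.95 were left out; 0.27% of those kept are expected to be wrong. A second decoding did not use the groups; 109604 values were kept by both and 4 of them differed.

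The 12 macrophage libraries in 4 groups entered 1 fit of log2(value + 1) with limma 3.58.1 (lmFit, eBayes with a trend, R 4.3.3), over genes that reached 10 in 2 or more libraries, two-sided, with Benjamini-Hochberg adjustment. The design was written for intact normalised values; no count test was run on the decoded reads as the main result. A gene decoded in 1 combination library takes its spread from the other groups. Scripts were tested on simulated data. False calls were 13 of 104 calls with the group-aware decoding, above the nominal share. With the group-blind decoding they were 4 of 71, close to that share but not below it. Most 2-fold changes were missed with both. Other steps used pandas 2.3.3, scipy 1.17.1 and numpy 2.4.6 in Python 3.11.15, and matplotlib 3.10.9 for figures. Decoded reads per library were 1286473 to 7479193, so low genes rest on few reads. Positions are from GENCODE and promoter sequences from RefSeq.

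The genes named are up to 15 each way with the largest changes in both decodings (groups apart, both combination and at least 3 cisplatin libraries decoded, mean log2 level of at least 5), up to 4 called genes per list, a fixed set and up to 8 interaction genes. The others, among them Rtn1, Mef2c, Tgfbr2, Etv5, Tfec, Plac8, Oas3, Isg20, Ifit2, Ifit3, Usp18, Ifi44, Mnda, Cxcl11, Tnfsf10, Atp6v1c1, Ctsd, Mcm5, Nusap1, Foxm1, Cdk1, Hist1h2bm, Mdm2 and Btg1, were chosen after their values were seen. The comparison, the 45 gene lists and the tests were chosen with earlier results of these data known. Alternatives covered the decoding, pseudocount, filter, scaling, weights, limma-voom, the libraries fitted and each library left out. Some genes counted in the lists are not reported here by name.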

Additional observations from a re-analysis of the deposited data

Results flagged for a closer look

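In 10 of 135 groups of 4 libraries (7.41%) 1 library lay far from the other 3, by Dixon's test at its 95% level; chance gives about 1 in 20. Cisplatin replicate 2 was lowest for Csf1r (2002, others 2450 to 2508) and Rpl10a (599, others 844 to 902). The same library was highest for Napsa (29.5, others 8.64 to 10.6) and Plet1 (7.94, others 1). Plet1, a surface protein of dendritic cells and some epithelia, was 169 in the only decoded combination library. Cisplatin replicate 3 was highest for Etv5 (167, others 105 to 109) and lowest for Elmo1 (223, others 285 to 297) and for Rhou (5.17, others 12.4 to 14.8). Rhou was 89.1 and 78.9 in the combination, both values with more than 1 possible place. Cisplatin replicate 4 was lowest for Slamf7 (29.7, others 81.7 to 95.3). Without cisplatin, control replicate 4 read 1.12 for Ear1 and Ear2, and the others 1. For Plet1, Ear1 and Ear2 the other libraries were all at the lowest value listed. Any higher value is then flagged, so the chance rate does not hold for these genes.

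For 3 genes the effect of the antibody differed between tumours with and without cisplatin by the interaction test in limma. The difference was -4.88 for Etv1 (adjusted p = 0.0024), -2.74 for Ep400 (adjusted p = 0.0147) and 4.28 for Kif1a (adjusted p = 0.0361), on the log2 scale. The size of each rests on the place decoded for the decimal point. After the group-blind decoding 0 genes passed, with 610 at an unadjusted p under 0.05. Mmp9 and Mmp13, at 5.45 and 3.56, did not pass (adjusted p = 0.0554 and 0.067).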

How the results depend on the processing

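No paired analysis was possible because the labels give no replicate numbers. For combination against cisplatin, the group-blind decoding gave 112 genes, values with 1 possible place alone 64, limma array weights 1541 and a fit of the 6 libraries alone 655; leaving out 1 library gave 1 (without combination replicate 2) to 576 genes (without cisplatin replicate 2). For anti-CSF-1R against control, in the same order, the first 3 gave 93, 14 and 111, a filter of at least 50 gave 178, quantile normalisation 228, limma-voom 105, and leaving out 1 library 44 to 641, without anti-CSF-1R replicate 2 and control replicate 4. For the interaction, the group-blind decoding gave 0, the most probable place 121, values with 1 possible place 0, a pseudocount of 10 8, no filter 20, limma-voom 65, and leaving out 1 library 1 to 11. One-place values leave fewer genes to test; otherwise the cause was not tested. Of 107 genes examined in detail that passed, 50 of the 97 that could be fitted passed after it, 55 with limma-voom, 30 of 105 without combination replicate 1 and 1 of 98 without combination replicate 2. P2ry6 turned to 0.37 with the most probable place and 0.69 with limma-voom. Arg1, which did not pass, turned to 0.0014 with size factors computed again, and lay between -0.55 and 0.59 with 1 library left out (0.05 without cisplatin replicate 1). Medians of 16 lists changed sign in at least 1 setting, DNA replication among them. Those of the type I interferon, interferon-gamma, T cell-attracting, mitosis and complement lists kept their sign in each, at 0.91 to 1.52, 1.30 to 1.87, 1.37 to 2.33, -2.98 to -0.99 and -1.19 to -0.52.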
